A study of Mus musculus with 47 samples.

Results

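Gdap10, Coq10b, Tomm40l, Mknk2 and Pim3 were followed across 8 groups of mouse livers. They are 5 of the 6889 genes that had a transcript with a single symbol in the value table, and each was measured by 1 transcript. The genes were selected on these same arrays, for higher values in groups that received the organic or the TiO2 sunscreen, so their differences between those groups and the controls are given as a description with no test. Liver RNA came from female, immune-competent, hairless SKH:QS mice that entered the study at 8 weeks of age and received 30 weekly treatments over 36 weeks. Control-UVR mice had neither sunscreen nor UVR, and Control + UVR mice had no sunscreen and 29 kJ/m2 of simulated solar UVR per treatment. ZnO-UVR and ZnO + UVR mice received a product whose only active ingredient is ZnO nanoparticles. TiO2-UVR and TiO2 + UVR mice received a product with TiO2 nanoparticles and the organic filters octylmethoxycinnamate and butyl methoxydibenzoylmethane. Organic-UVR and Organic + UVR mice received a product with both of these filters, 4-methylbenzylidene camphor and octocrylene, and no metal oxide. Each group had 6 arrays, 1 for each mouse, except ZnO + UVR with 5, which makes 47. The study's methods put the mice of a group in a shared cage while the labels give individual housing, and if cages were shared, treatment and cage cannot be told apart. The hour of death was not given in the sources used here.

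Gdap10 is a long non-coding RNA gene. Coq10b encodes a mitochondrial protein that binds coenzyme Q, the lipid that carries electrons along the respiratory chain, and is needed for its normal function there. Tomm40l encodes a relative of Tomm40, the pore through which proteins cross the mitochondrial outer membrane. Mknk2 encodes a kinase that is activated by MAP kinases and phosphorylates the cap-binding factor eIF4E. Pim3 encodes a serine/threonine kinase of the PIM family, which is controlled mainly by how much of it is made. Many liver transcripts follow the time of day under the circadian clock, in which activators such as NPAS2 act on E-box sequences, repressors such as CIART and the PER proteins act against them, and the factors TEF and HLF (activators) and NFIL3 (a repressor) act on D-box sequences.

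In the GRCm38.p6 build, Gdap10 lies at chr12:32824116-32826919, wholly inside the span of Nampt (chr12:32820335-32853369), which encodes the rate-limiting enzyme of NAD salvage. Coq10b lies at chr1:55052770-55072702, Tomm40l at chr1:171217802-171222514, Mknk2 at chr10:80665318-80676293 and Pim3 at chr15:88862194-88865726. The span of Tomm40l shares 1044 bases with Nr1i3, the gene of the nuclear receptor CAR, and 951 bases with the apolipoprotein gene Apoa2. The annotation used here gives gene spans and not exons, so it is uncertain how far the Gdap10 and Tomm40l values read RNA of the overlapping genes. RefSeq promoter windows of 300 bases around the gene start were found for Gdap10, Coq10b, Mknk2 and Pim3. They are shown for a pair of genes: Coq10b, the only one of these 4 genes with a match to a searched motif, and Gdap10, whose window lies within Nampt. Both are on the plus strand and written 5′ to 3′, with matches in capitals (Coq10b, chr1:55052520-55052819; Gdap10, chr12:32823866-32824165).
Coq10b: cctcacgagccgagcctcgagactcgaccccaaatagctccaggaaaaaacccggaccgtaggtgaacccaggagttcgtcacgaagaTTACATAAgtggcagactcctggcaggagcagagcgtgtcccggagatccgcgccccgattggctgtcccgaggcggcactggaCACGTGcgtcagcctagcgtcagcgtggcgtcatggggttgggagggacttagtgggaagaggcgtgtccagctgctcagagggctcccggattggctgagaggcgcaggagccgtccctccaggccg
Gdap10: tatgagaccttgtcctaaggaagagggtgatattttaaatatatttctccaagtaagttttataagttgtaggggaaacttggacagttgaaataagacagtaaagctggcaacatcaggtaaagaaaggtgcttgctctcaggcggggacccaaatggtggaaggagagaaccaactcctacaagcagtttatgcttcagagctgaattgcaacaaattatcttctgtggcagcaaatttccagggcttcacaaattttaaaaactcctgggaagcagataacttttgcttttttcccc
The searched motifs, on both strands, were the E-box CACGTG, the D-boxes TTATGTAA and TTACGTAA, the cyclic AMP response element TGACGTCA and the forkhead motif GTAAACA. In the Coq10b window the E-box began 78 bases before the gene start (chr1:55052692-55052697), and the D-box TTATGTAA, read on the opposite strand as TTACATAA, began 162 bases before it (chr1:55052608-55052615). These matches did not overlap. Of 32851 promoter windows of this length in the table, 7.15% held the E-box, 0.938% held TTATGTAA, 0.119% held TTACGTAA, 1.79% held TGACGTCA and 3.65% held GTAAACA. The Gdap10, Mknk2 and Pim3 windows held none of these letters. The windows of Mknk2 and Pim3 had 70.0% and 69.0% G and C bases, that of Coq10b 63.7% and that of Gdap10 40.3%.

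The arrays carried hepatocyte RNA in every group. The summed level of 12 measured hepatocyte markers of 19 listed lay between 14.8 and 15.6 (log2) on all arrays, and Apoa2 read from 12.97 to 13.58. Lists for 7 other cell types had 1 to 4 measured markers each, and their part in the results below was not tested; in liver pieces, fewer cells of a type and less RNA per cell cannot be told apart. Of these markers the bile duct keratin Krt7 was higher in Organic-UVR (log2 difference from Control-UVR 0.57, limma adjusted p = 0.00641) and in Organic + UVR (0.37, adjusted p = 0.095), and the endothelial marker Pecam1 was lower in Organic + UVR (-0.66, adjusted p = 0.072). Without Organic-UVR replicate 1, Krt7 was at 0.49 in Organic-UVR (adjusted p = 0.0314). The calls in Organic + UVR held in 2 (Krt7) and 3 (Pecam1) of the 12 fits that left out 1 mouse of either group, those without Control-UVR replicates 1, 2, 3, 4 and 6 and Organic + UVR replicates 2, 3 and 4 losing both, those without replicate 5 of either group losing Krt7 and that without Organic + UVR replicate 6 losing Pecam1. The summed levels of the 3 measured markers of each type overlapped the controls: for bile duct they ran from 6.43 to 7.20 in Control-UVR, 6.49 to 7.03 in Organic-UVR and 6.28 to 6.81 in Organic + UVR, and for endothelium from 7.70 to 8.06, 7.47 to 8.10 and 7.36 to 7.95. The array of Organic-UVR replicate 1 stood apart, with a slope of 0.772 against the mean of all arrays, so for that group the levels and differences of the 5 genes and the genes called below are also given without it.

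Gdap10 was highest in TiO2 + UVR (6.52 ± 0.46 (SD, n = 6), log2) and Organic-UVR (6.46 ± 1.13 (SD, n = 6)). Its lowest, median and highest mice read 5.82, 6.57 and 7.25 in TiO2 + UVR, 4.86, 6.75 and 7.87 in Organic-UVR, and 5.57, 5.98 and 6.38 in Organic + UVR. In Control-UVR they read 4.68, 5.26 and 6.27. So 5 of 6 TiO2 + UVR mice, 4 of 6 Organic-UVR mice and 2 of 6 Organic + UVR mice lay above the highest control mouse, and in each of these groups the values overlapped the controls. The highest Control-UVR mouse was replicate 1 for each of the 5 genes, so such counts for all of them rest on 1 animal. Without Organic-UVR replicate 1, at 5.40, that group's mean was 6.67 ± 1.12 (SD, n = 5). In TiO2-UVR the mice read 4.39, 4.98 and 5.86, which lay within or below the control range. Control + UVR had the lowest mean, at 4.74 ± 0.47 (SD, n = 6), with mice from 4.14 to 5.28. ZnO-UVR was split, with replicates 1 and 2 at 6.70 and 7.34 and the others at 4.86 to 5.65. The 5 ZnO + UVR mice read 5.31, 4.94, 5.36, 4.70 and 4.91.

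Coq10b, the coenzyme Q-binding protein gene, ran from 6.22 to 9.34 (log2) over the 47 mice. Its lowest, median and highest mice read 7.95, 8.52 and 9.34 in TiO2 + UVR, against 6.47, 6.64 and 6.98 in TiO2-UVR. Those groups received the same product and did not overlap. In Organic-UVR the mice read 6.92, 8.62 and 9.31, and in Organic + UVR 6.72, 8.46 and 9.25. The control mice ran from 6.73 through a median of 7.02 to 8.07. Above the highest control mouse lay 5 of 6 TiO2 + UVR mice, 4 of 6 Organic-UVR mice and 3 of 6 Organic + UVR mice. The lowest Organic-UVR mouse was replicate 1, and without it the group ran from 7.81 through 8.77 to 9.31. Control + UVR ran from 6.22 through 7.44 to 7.63. In ZnO-UVR, replicates 1 and 2 read 8.75 and 9.07 and the others 6.37 to 7.21, so the same pair of mice that was high for Gdap10 was high here. The ZnO + UVR mice read 6.89, 6.22, 7.18, 6.58 and 7.58, all within or below the control range.

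Tomm40l, the relative of the import pore gene, was also highest in TiO2 + UVR, with smaller steps between groups. TiO2 + UVR mice ran from 6.40 through a median of 6.82 to 7.32 (log2), and Control-UVR mice from 5.81 through 6.04 to 6.54. Organic-UVR ran from 5.95 through 6.56 to 7.23 and Organic + UVR from 6.18 through 6.46 to 6.70, with 3 of 6 mice of each above the highest control mouse. Without Organic-UVR replicate 1 the former ran from 5.95 through 6.58 to 7.23. TiO2-UVR (5.49, 6.03 and 6.47) and Control + UVR (5.64, 6.07 and 6.35) had no such mouse. In ZnO-UVR the highest values, 7.26 and 6.84, again belonged to replicates 1 and 2, and the group mean of 6.49 ± 0.46 (SD, n = 6) lay between those of the organic groups. The ZnO + UVR mice read 6.47, 6.49, 5.61, 6.25 and 6.00.

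Mknk2, the eIF4E kinase gene, varied less between mice of a group than the first 3 genes (pooled SD 0.23 against 0.66 for Gdap10, 0.76 for Coq10b and 0.36 for Tomm40l). Its lowest, median and highest mice read 5.89, 6.42 and 6.72 in TiO2 + UVR, 5.85, 6.25 and 6.37 in Organic-UVR and 5.76, 6.06 and 6.36 in Organic + UVR. The control mice read 5.49, 5.75 and 6.05. In TiO2 + UVR and Organic-UVR 5 of 6 mice lay above the highest control, and the remaining mouse of each group lay inside the control range. In Organic-UVR that mouse was replicate 1, and the 5 others read 6.16 to 6.37. TiO2-UVR (5.41, 5.70 and 5.92) had the lowest mean. ZnO-UVR ran from 5.59 through 5.95 to 6.30 and Control + UVR from 5.67 through 5.77 to 6.31. Again ZnO-UVR replicates 1 and 2 were the highest of their group, at 6.30 and 6.18, and lay above the highest control. So did 3 of 6 Organic + UVR mice and 1 of 6 Control + UVR mice. The ZnO + UVR mice read 5.81, 6.03, 5.62, 5.76 and 5.66.

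Pim3, the PIM family kinase gene, had another order of groups. Control-UVR was its lowest group, with mice at 5.30, 5.54 and 5.84 (lowest, median and highest, log2). Organic-UVR mice read 5.85, 5.95 and 6.24, each above every control mouse; without replicate 1 the lowest was still 5.85. Organic + UVR ran from 5.75 through 6.00 to 6.68 and TiO2 + UVR from 5.76 through 6.13 to 6.29, with 5 of 6 mice above the controls in both. Control + UVR, with no sunscreen, was next at 5.81, 5.88 and 6.13, with 4 of 6 mice above the highest control. TiO2-UVR (5.53, 5.75 and 5.82) and ZnO-UVR (5.29, 5.60 and 6.07) lay lower. The ZnO + UVR mice read 5.94, 5.86, 5.76, 5.50 and 5.65.

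**Figure D1:**
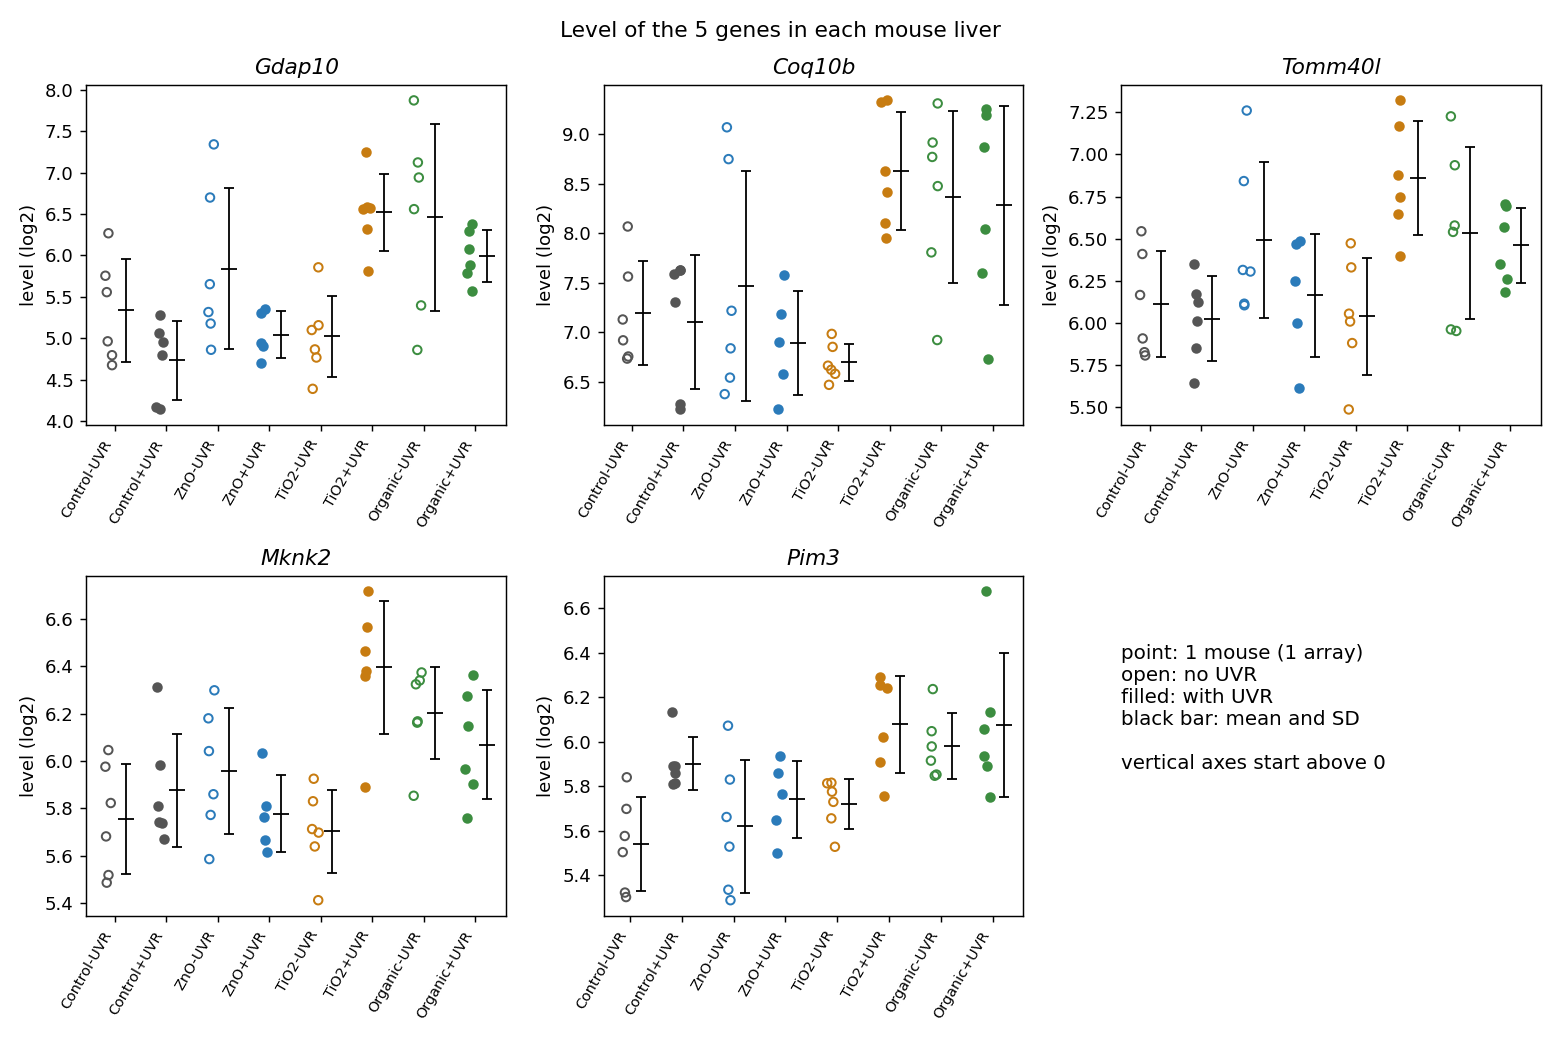
Level of each gene (vertical axis, log2 units, not starting at 0) in the 8 groups (horizontal axis). Each point is 1 mouse, open without UVR and filled with UVR, and the black bar is the mean with its SD. TiO2 + UVR has the highest mean for all 5 genes (for Gdap10 and Coq10b not so without Organic-UVR replicate 1), while TiO2-UVR has a mean below that of Control-UVR for all but Pim3 (Tomm40l and Mknk2 by under 0.1). ZnO-UVR holds a pair of high mice for Gdap10, Coq10b, Tomm40l and, less set apart, Mknk2.

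TiO2 + UVR had the highest mean of the 8 groups for each of the 5 genes, although without Organic-UVR replicate 1 the mean of Organic-UVR was higher for Gdap10 (6.67 against 6.52) and Coq10b (8.66 against 8.63). Organic-UVR came second for Gdap10, Coq10b, Tomm40l and Mknk2, and Organic + UVR for Pim3. Few neighbours in these orders were far apart. The gap between a group and the next one down exceeded the pooled SD within groups in 1 case, from Organic + UVR (8.28) to ZnO-UVR (7.46) for Coq10b, a gap of 1.08 SD. All other neighbours differed by at most 0.90 SD. This SD is the spread of single mice and not the error of a group mean, so whether the means of neighbours differ was not tested. At the lower end the order was not shared: the lowest group was Control + UVR for Gdap10 and Tomm40l, TiO2-UVR for Coq10b and Mknk2, and Control-UVR for Pim3.

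The comparisons that chose the genes are described next, and they all use the same Control-UVR arrays. In Organic-UVR the log2 difference from Control-UVR was 1.12 (SE 0.31) for Gdap10, 1.17 (SE 0.39) for Coq10b, 0.42 (SE 0.20) for Tomm40l, 0.45 (SE 0.13) for Mknk2 and 0.44 (SE 0.13) for Pim3, with a median of 0.45 against 0.01 over the 6889 genes with 1 symbol. Without replicate 1 of that group these differences were larger, at 1.42, 1.55, 0.58, 0.55 and 0.50 in turn. In Organic + UVR they were 0.66 (SE 0.31), 1.09 (SE 0.39), 0.35 (SE 0.20), 0.31 (SE 0.13) and 0.53 (SE 0.13), with a median of 0.53 against -0.01. In TiO2 + UVR they were 1.18 (SE 0.31), 1.43 (SE 0.39), 0.75 (SE 0.20), 0.64 (SE 0.13) and 0.54 (SE 0.13), with a median of 0.75 against 0.02. In TiO2-UVR, in contrast, they were -0.31 (SE 0.31), -0.50 (SE 0.39), -0.07 (SE 0.20), -0.05 (SE 0.13) and 0.18 (SE 0.13), where those of Tomm40l and Mknk2 lay just above 0 with the array slope as a covariate. Between both TiO2 groups the values with UVR were higher by 1.49 for Gdap10, 1.93 for Coq10b, 0.82 for Tomm40l, 0.69 for Mknk2 and 0.36 for Pim3. Between both organic groups the values with UVR differed by -0.46, -0.09, -0.07, -0.13 and 0.09 in the same order.

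At a limma adjusted p under 0.1, which is used below for other genes, 321 of 9815 transcripts were called in Organic-UVR (3.27%, with 0.744% higher), 162 in Organic + UVR (1.65%, with 0.255% higher), 68 in TiO2 + UVR (0.693%, with 0.173% higher) and none in TiO2-UVR (0%, and 0% higher; 379 had an unadjusted p under 0.05). No call is given for the 5 genes in these comparisons, because they chose them. As a description, every Organic-UVR mouse read above every control mouse for Pim3, where this held for 0.377% of all transcripts. It held for none of the 5 genes in Organic + UVR (0.357% of all), TiO2-UVR (0.0509%) or TiO2 + UVR (0.509%). Every TiO2 + UVR mouse read above every TiO2-UVR mouse for Coq10b, as for 0.377% of all transcripts. Nothing further is read from these counts.

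**Figure D2:**
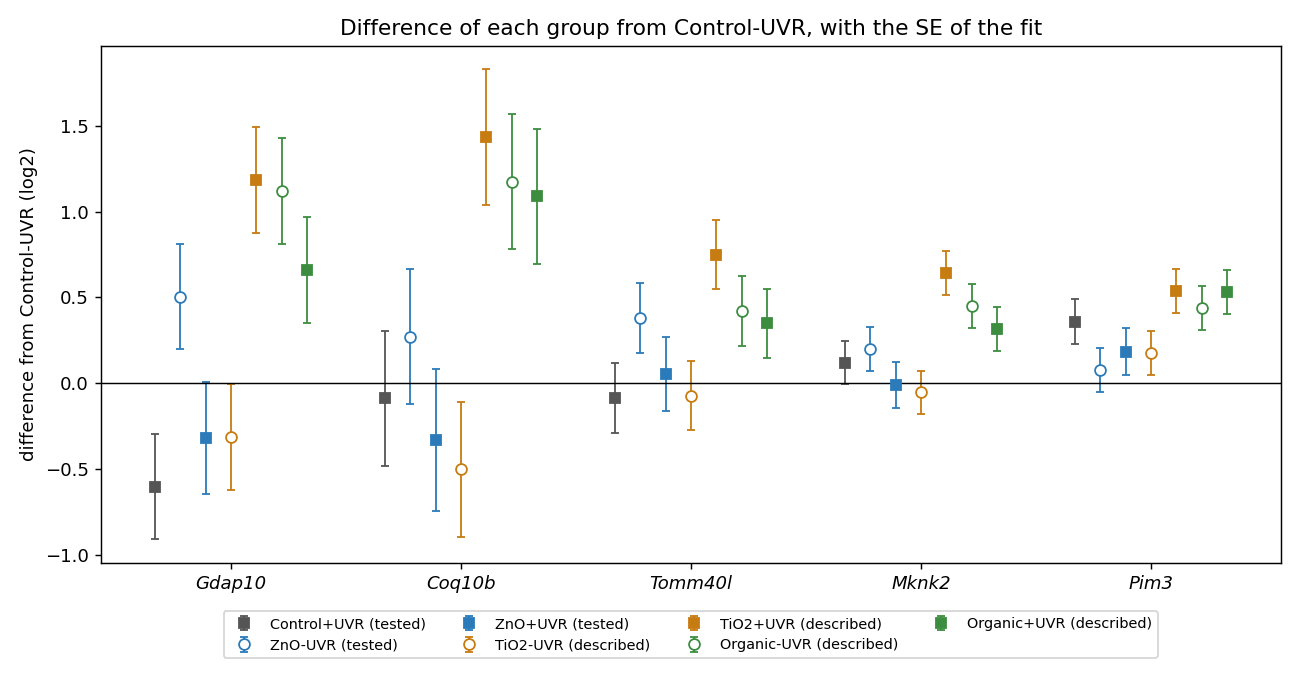
Difference of each treated group from Control-UVR on the log2 scale (vertical axis) for the 5 genes (horizontal axis), with the SE of the fit as bars; the legend marks groups that chose the genes as described and the others as tested. TiO2 + UVR, Organic-UVR and Organic + UVR lie above 0 for all 5 genes, and TiO2-UVR lies below 0 for all but Pim3, although with the array slope as a covariate Tomm40l and Mknk2 lay just above 0.

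UVR without sunscreen and the ZnO product were not used to choose the genes, although the Control-UVR arrays were. In Control + UVR none of the 5 genes was called against Control-UVR (0.0509% of all transcripts were, at a limma adjusted p under 0.1, and 1260 of 9815 had an unadjusted p under 0.05). Pim3 came closest, with a difference of 0.36 (SE 0.13, limma adjusted p = 0.266), and its adjusted p ranged from 0.092 with array weights, where it was called, to 0.562 with the array slope as a covariate. Gdap10 was at -0.60 (SE 0.31, adjusted p = 0.408), and Coq10b, Tomm40l and Mknk2 were at -0.09, -0.08 and 0.12 (adjusted p = 0.93, 0.864 and 0.687). The 95% intervals were ± 0.62 for Gdap10, ± 0.79 for Coq10b, ± 0.41 for Tomm40l and ± 0.26 for both kinases, so differences inside them could not be told from 0. Only the Pim3 difference of 0.36 lay outside its interval, and these intervals are not adjusted for the number of transcripts tested.

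In ZnO-UVR the 5 genes lay above Control-UVR by 0.51 (SE 0.31) for Gdap10, 0.27 (SE 0.39) for Coq10b, 0.38 (SE 0.20) for Tomm40l, 0.20 (SE 0.13) for Mknk2 and 0.08 (SE 0.13) for Pim3. None was called by limma (adjusted p = 1.00 for each), nor was any other transcript (0%; 149 had an unadjusted p under 0.05). Replicates 1 and 2 carried much of this: without replicate 2 the difference was 0.28 for Gdap10 and -0.05 for Coq10b, and without replicate 1 it was 0.36 and 0.02, and 0.23 for Tomm40l. In ZnO + UVR against Control-UVR the values were -0.32, -0.33, 0.05, -0.01 and 0.19 for Gdap10, Coq10b, Tomm40l, Mknk2 and Pim3, with none called (0% of transcripts; 276 had an unadjusted p under 0.05).

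Comparisons among the groups that the choice did not use gave no call either. Against Control + UVR, the ZnO + UVR mice differed by 0.28 (SE 0.32) for Gdap10, -0.24 (SE 0.41) for Coq10b, 0.14 (SE 0.21) for Tomm40l, -0.13 (SE 0.13) for Mknk2 and -0.17 (SE 0.14) for Pim3 (limma adjusted p from 0.823 to 0.907; 0% of transcripts called, 579 with an unadjusted p under 0.05). Against ZnO-UVR, Gdap10 was lower in ZnO + UVR by a difference of -0.82 (SE 0.32, limma adjusted p = 1.00), and by -0.59 without ZnO-UVR replicate 2. The difference of -0.82 lay outside its unadjusted 95% interval of ± 0.65. Coq10b, Tomm40l, Mknk2 and Pim3 were at -0.60, -0.33, -0.21 and 0.11 in that comparison (0% of transcripts called, 215 with an unadjusted p under 0.05).

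The 5 genes also varied together among mice that had the same treatment. After each group's mean was subtracted, the 10 pairs of genes had Pearson r from 0.15 to 0.64 over 47 arrays, with a median of 0.47, and all were above 0. The median r of a member with the 6888 other named genes was between -0.01 and 0.02, and r with single genes ran from -0.76 to 0.83. Positive and negative r balance in such a median, so it does not show how unusual the 10 pairs are. Gdap10 correlated with Tomm40l at r = 0.64 (Spearman rho 0.60) and with Coq10b at r = 0.61 (rho 0.59). The weakest pair was Gdap10 with Pim3, at r = 0.15 (rho 0.22), and Pim3 correlated most with Tomm40l, at r = 0.48. Leaving out the pair of arrays farthest from the median of the first gene, r was 0.59 for Gdap10 with Tomm40l and 0.56 for Gdap10 with Coq10b, and at least 0.25 for every pair. In the 23 arrays of the Control and ZnO groups alone, r ran from 0.42 to 0.82 with a median of 0.62, highest for Gdap10 with Coq10b, where it was 0.72 without ZnO-UVR replicate 2 and Control-UVR replicate 1. The lowest of them, Coq10b with Mknk2, was 0.23 without ZnO-UVR replicates 1 and 2. All these values are descriptions; the points share an array's RNA, hybridization and normalization.

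Among the 13 measured neighbours of the 5 genes, 3 overlap a member, and a pair of these ran closely with it. Tomm40l correlated with Nr1i3, whose span it overlaps, at r = 0.82 (rho 0.81, and 0.80 without the 2 farthest arrays), the highest r of any named gene with Tomm40l, and with Apoa2, the gene on its other side, at r = 0.09. Nr1i3 itself differed from Control-UVR by 0.65 in TiO2 + UVR (limma adjusted p = 0.321), 0.40 in Organic-UVR, 0.38 in Organic + UVR and 0.00 in TiO2-UVR, and was not called. Gdap10 correlated with its host gene Nampt at r = 0.63 (rho 0.60), and Coq10b, on another chromosome, correlated with Nampt more strongly, at r = 0.83 (rho 0.81, and 0.80 without the 2 farthest arrays). Nampt was at 0.99 in TiO2 + UVR (limma adjusted p = 0.265), 0.40 in Organic-UVR, 0.40 in Organic + UVR and -0.26 in TiO2-UVR. In Organic-UVR it read 6.53 in replicate 1, the array that stood apart, and 8.12 to 9.63 in the other mice. The median of Nampt was 9.13 in Organic-UVR, 8.60 in Organic + UVR, 9.24 in TiO2 + UVR and 8.31 in Control-UVR. Its ZnO-UVR replicates 1 and 2 read 9.06 and 9.85, against 7.84 to 8.43 in the others of that group. None of the 13 neighbours was called in any of the 7 comparisons with Control-UVR; the smallest adjusted p was 0.125. Coq10b had r of 0.37 with the chaperonin gene Hspd1, 5130 bases after it. With the splicing factor gene Sf3b1, the neighbour before it, Coq10b had r of 0.59 (rho 0.61). Sf3b1 spread widest in Organic-UVR, from 7.99 to 9.64 with a median of 9.47. How far single arrays of that group carry this r was not tested. Mknk2 had r of 0.30 and -0.17 with Btbd2 and Mob3a, and Pim3 -0.36 and 0.16 with Creld2 and Ttll8. Gdap10 had r of -0.03 with Ccdc71l, before it, and 0.57 (rho 0.50) with Sypl, 126935 bases after it. So a neighbour that does not overlap Gdap10 came close to the r of 0.63 with Nampt, although its rho was lower (0.50 against 0.60). Without the 2 farthest arrays r was 0.58 with both. Sypl spread widest in Organic-UVR, from 7.14 to 8.44, the group that holds the array that stood apart.

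**Figure D3:**
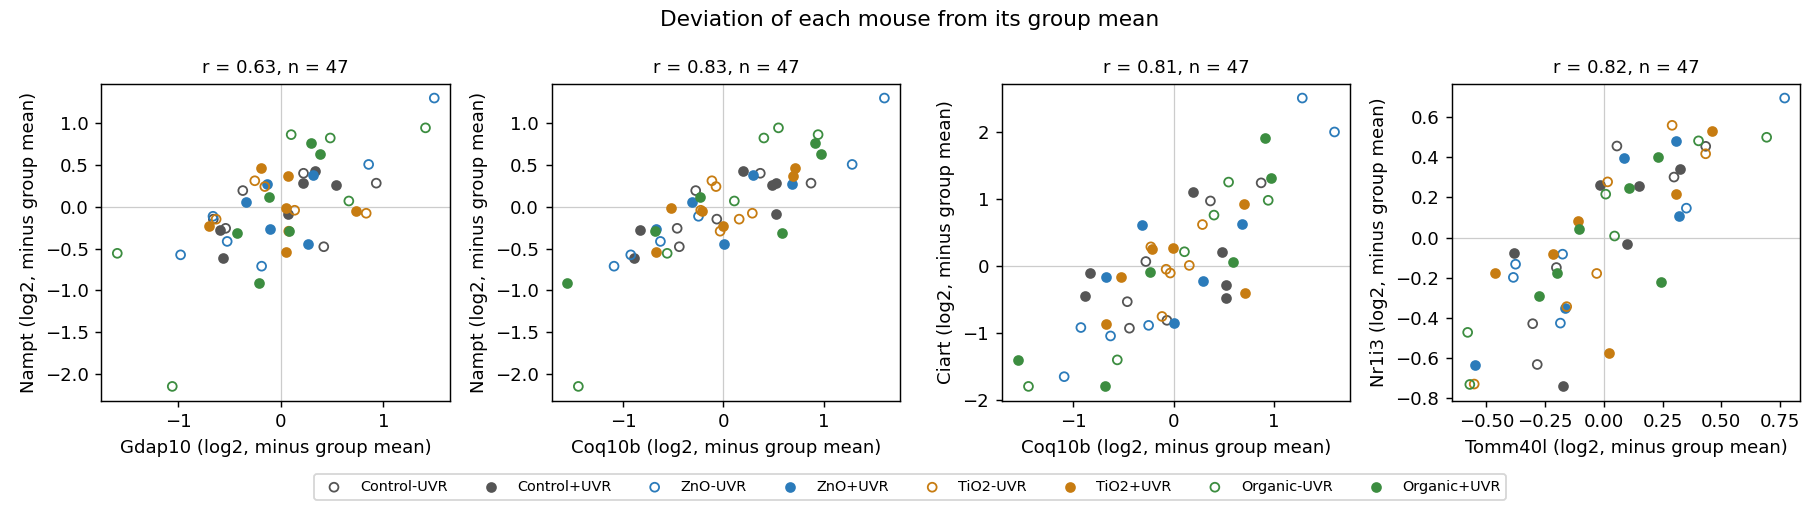
Deviation of each mouse from its group's mean (log2 units on both axes) for Gdap10 and Coq10b with Nampt, Coq10b with Ciart and Tomm40l with Nr1i3. Each point is 1 of 47 arrays, with colours for the sunscreen and filled points for UVR, and the r above each panel runs from 0.63 to 0.83.

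Of all named genes, those most like Coq10b were Nampt, the clock repressor gene Ciart (r = 0.81, rho 0.76), the mitophagy receptor gene Bnip3 (r = 0.78) and Morc3 (r = 0.73), and those that ran most against it were Rab36 (r = -0.76) and Ndrg1 (r = -0.74). The genes most like Gdap10 were Ctage5 (r = 0.76), Pik3r1 (r = 0.74), which encodes the regulatory subunit of phosphoinositide 3-kinase, Ell2 (r = 0.74) and Snord42a (r = 0.74), and the least like it were Sec61b (r = -0.67) and Fam25c (r = -0.65). After Nr1i3, Tomm40l was most like 4930562F07Rik (r = 0.76), Clmn (r = 0.74) and the clock output gene Hlf (r = 0.74), and least like Lgalsl (r = -0.64) and Ncapg2 (r = -0.58). Mknk2 was most like the amino acid transporter gene Slc38a2 (r = 0.68), Nrbp2 (r = 0.68), Ttll5 (r = 0.68) and Ppara (r = 0.67), the gene of a nuclear receptor for fatty acids, and least like Ccnb1ip1 (r = -0.59) and H1f2 (r = -0.58). Pim3 was most like Tmem191c (r = 0.75), Gpr137c (r = 0.73), Tm4sf20 (r = 0.64) and Krt28 (r = 0.64), and least like Nsf (r = -0.59) and Rarb (r = -0.56). For Pim3 these values leaned on few arrays: without Organic + UVR replicate 4 and ZnO-UVR replicate 1, r was 0.50 with Krt28 and -0.46 with Nsf. Some companions were also dim. Mean levels were 4.07 for Gpr137c, 3.56 for Tm4sf20, 3.37 for Krt28 and 3.57 for Ncapg2 (log2), where the median over transcripts was 5.24. Spearman's rho was within 0.05 of r for the named companions of Gdap10, Coq10b, Tomm40l and Mknk2.

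Of the 13 measured clock genes 8 (61.5%) had r of the same sign with all 5 genes, as had 23.8% of the 6884 other named genes. The clock list was written with earlier results of these data known. Clock genes act on one another, so they are not separate observations, and the difference between these shares was not tested. Over the 13 measured genes of a list of 26 clock genes, the highest r was 0.81 for Coq10b (with Ciart), 0.74 for Tomm40l (Hlf), 0.73 for Gdap10 (Hlf), 0.59 for Mknk2 (Nr1d2) and 0.41 for Pim3 (Tef). All 5 members had positive r with Per1, Per2, Nr1d2, Ciart, Tef and Hlf, and negative r with Npas2, from -0.47 for Pim3 to -0.61 for Coq10b, and with Nfil3. Cry1, Nr1d1, Csnk1d, Csnk1e and Fbxl21 had r of either sign. The pair of high ZnO-UVR mice read 9.04 and 8.53 for Ciart, against 4.87 to 5.64 in the rest of that group. Control-UVR was also split: replicates 1 and 5 read 7.15 and 6.88 for Ciart, against 4.98 to 5.97 in its other mice. For Npas2 these control replicates read 4.12 and 4.20, against 5.87 to 6.71 in its other mice. In the clock list 4 genes were higher and 3 lower than in Control-UVR in Organic-UVR, 0 higher and 2 lower in Organic + UVR, 3 higher and 2 lower in TiO2 + UVR, and none was called in the other 4 comparisons (limma adjusted p under 0.1). Of all transcripts, 3.27% were called in Organic-UVR, 1.65% in Organic + UVR and 0.693% in TiO2 + UVR. Without the replicate block the calls in those 3 groups numbered 4, 0 and 2. The calls with the smallest p were Fbxl21 (-0.60), Nfil3 (-1.15) and Per1 (0.81) in Organic-UVR, and Ciart (2.30), Tef (0.85) and Npas2 (-1.53) in TiO2 + UVR. Leaving out 1 mouse of the compared groups changed these counts. In Organic-UVR the 7 calls became 3 without Control-UVR replicate 2 or 6, while Fbxl21, Nfil3 and Per1 were called in all 12 such fits and, without Organic-UVR replicate 1, were at -0.57, -1.08 and 0.92. In Organic + UVR the 2 calls, Nfil3 and Npas2, became 0 without Control-UVR replicate 2, 4 or 6, or Organic + UVR mouse 4, and 4 without Control-UVR replicate 5. In TiO2 + UVR the 5 calls became 0 without Control-UVR replicate 2 or 4 or TiO2 + UVR replicate 6, 1 without Control-UVR replicate 6 or TiO2 + UVR replicate 3 or 4, and 2 without Control-UVR replicate 3 or TiO2 + UVR replicate 5.

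**Figure D4:**
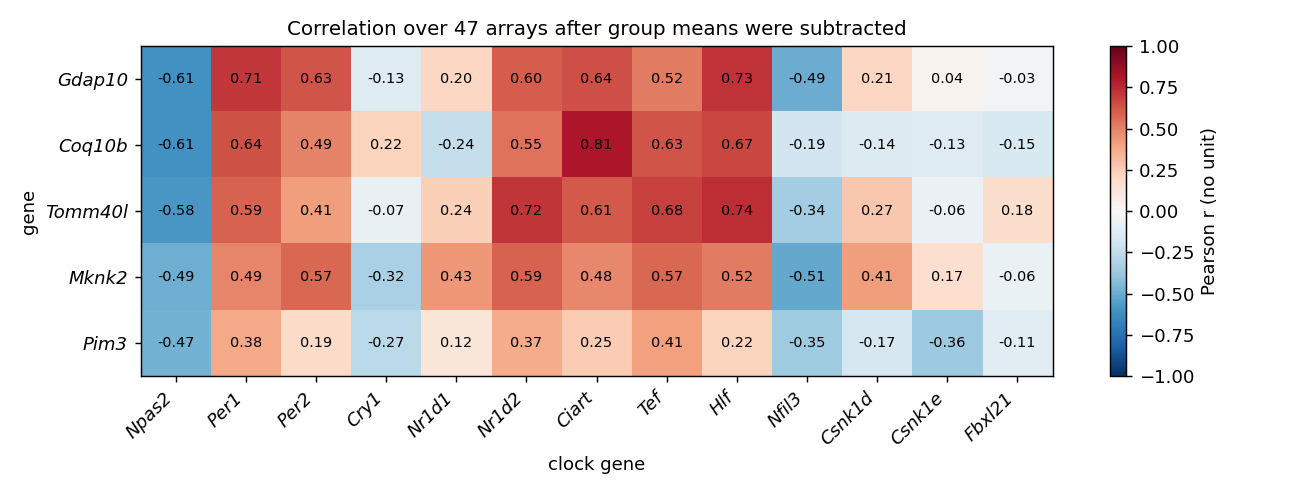
Pearson r (colour and printed value, no unit) of each of the 5 genes (vertical axis) with 13 measured clock genes (horizontal axis) over 47 arrays after group means were subtracted. Per1, Per2, Nr1d2, Ciart, Tef and Hlf are positive with every gene, and Npas2 and Nfil3 are negative with every gene.

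Among the lists of the members' own pathways, only those of coenzyme Q and of PIM kinases held called genes in the fit of all arrays. Of all transcripts, 3.27% were called in Organic-UVR, 1.65% in Organic + UVR and 0.693% in TiO2 + UVR. Coq10a, the paralog of Coq10b, was not called in any of the 7 comparisons with Control-UVR and lay at 0.23 in TiO2 + UVR (limma adjusted p = 0.632), 0.13 in Organic-UVR and 0.11 in Organic + UVR, and its r with Coq10b was 0.17. Of 4 measured genes of coenzyme Q synthesis and handling of 12 listed, Coq8a, which encodes a kinase-like protein of the synthesis complex, was lower in Organic-UVR (-0.85, adjusted p = 0.0256) and TiO2 + UVR (-0.77, adjusted p = 0.0689). Pdss2, a subunit of the enzyme that makes the side chain of coenzyme Q, was lower in Organic-UVR (-0.67, adjusted p = 0.0603). These calls were 2 of the 4 measured genes in Organic-UVR and 1 of the 4 in TiO2 + UVR. Without the replicate block 1 gene of this list was called in Organic-UVR and 0 in TiO2 + UVR. Coq8a was called in all 12 fits without 1 mouse in Organic-UVR (-0.86 without replicate 1) but in 4 of 12 in TiO2 + UVR, where it was lost without Control-UVR replicate 1, 2, 3, 4 or 6 or TiO2 + UVR replicate 2, 4 or 6. Pdss2 was at -0.45 without Organic-UVR replicate 1 (adjusted p = 0.342) and was also lost without Organic-UVR replicate 4 or Control-UVR replicate 1, 2, 3 or 6. The list's median difference was -0.49 in Organic-UVR, -0.36 in Organic + UVR and -0.39 in TiO2 + UVR, against 0.01, -0.01 and 0.02 over all genes with 1 symbol. Neither 7 measured genes of outer membrane import and its partners nor 7 of inner membrane import held a call in any comparison (1 of the latter was called in Organic-UVR without its replicate 5), and the former had medians of -0.17, -0.03 and 0.06 in these groups. The same held for 9 measured genes between the MAP kinases and eIF4E, with medians of -0.09, 0.01 and -0.05, and with 1 call in Organic + UVR without its replicate 1. Of 11 measured genes of PIM kinases and cytokine signalling, Stat5b, a transcription factor downstream of growth hormone and cytokine receptors, fell by 0.50 in Organic-UVR (adjusted p = 0.0443), 0.58 in Organic + UVR (adjusted p = 0.0366) and 0.63 in TiO2 + UVR (adjusted p = 0.0127), and no other gene of that list was called. Without the replicate block no gene of that list was called in Organic-UVR. Stat5b was called in all 12 fits without 1 mouse in TiO2 + UVR. In Organic-UVR it was lost without that group's replicate 1 (-0.45, adjusted p = 0.186) and without control mouse 2 or 3, and in Organic + UVR without control mouse 4 or 6 or treated mouse 2 or 4. The paralogs Mknk1, Pim1, Pim2 and Tomm40 were not analysed here.

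Of 11 measured genes of the fasting and insulin response, Per1 was higher in Organic-UVR and in TiO2 + UVR, and Ppp1r3g, a glycogen-targeting phosphatase subunit gene, was higher in TiO2 + UVR (0.85, adjusted p = 0.0242). Insig2, which restrains sterol synthesis, was lower in Organic-UVR (-0.95), Organic + UVR (-0.68) and TiO2 + UVR (-0.997). Insig2 was called in all 12 fits without 1 mouse in Organic-UVR (-0.89 without replicate 1) and in TiO2 + UVR. In Organic + UVR it was not called without the replicate block, without Control-UVR replicate 1, 2, 4 or 6 or without Organic + UVR replicate 2 or 4. Ppp1r3g was lost without Control-UVR replicate 2, and Per1 in TiO2 + UVR held in 3 of 12 such fits, those without Control-UVR replicate 5 or TiO2 + UVR replicate 1 or 2. None of 3 measured genes of CAR, PXR and their targets, Nr1i3 among them, was called in any comparison.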

How the data were processed

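Liver RNA of 47 mice was hybridized to Affymetrix Mouse Gene 1.0 ST arrays, 1 for each mouse. The authors normalized all arrays by RMA and deposited log2 probeset values, which were used as given; whether their batch correction is included, and the batch of each chip, are not given in the sources used here. Of 16383 probesets, 6568 control probesets were left out and 9815 transcripts were tested, of which 7450 have 1 symbol in the platform annotation (511 have several and 1854 none) and 7421 matched RefSeq GRCm38.p6. Groups came from the labels. A single model of all 8 groups, with the replicate number as a block, was fitted in limma 3.58.1 (R 4.3.3), because the study ran 1 chip of each group per batch, and p-values were adjusted by the Benjamini-Hochberg method over all transcripts, with calls at an adjusted p under 0.1. The fit was tested on simulated data. For a gene with several transcripts the brightest was used. Genes named are the 5 members, for each the 4 genes with the highest and the 2 with the lowest r, measured neighbours, and up to 3 called genes per list and comparison with the closest relatives of the members. The members and lists were chosen with earlier results of these data known. Precision is limited by the number of arrays. Alternatives were no block, the compared groups alone, quantile normalization, array weights, leaving out dim transcripts, the array slope as a covariate, leaving out Organic-UVR replicate 1, and leaving out each array in turn.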

Additional observations from a re-analysis of the deposited data

Results flagged for a closer look

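Pim3 in Control + UVR replicate 1 read 6.13 (log2, 6.135 before rounding), apart from the 5 other mice of that group, of which the nearest read 5.89. The gap was 0.757 of the group's range, above the 95% critical value of Dixon's test for 6 samples. Chance marks about 1 in 20 such groups, and this was the 1 marked among 40 combinations of gene and group. Without this mouse the difference of Pim3 from Control-UVR was 0.34 (limma adjusted p = 0.267).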

How the results depend on the processing

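With array weights Pim3 was called in Control + UVR (0.35), which made 1 call where there was 0. No other setting changed the number of the 5 genes called in the tested comparisons, and without the replicate block it was 0 in each. The replicate numbers were not shown to pair the mice: the deviations of same-numbered arrays had a median r of 0.15 (-0.51 to 0.75), over 0.1 in 103 of 161 pairs, against a median of -0.03 for different numbers, and 21 of 47 arrays, not all, were closest to an array of their own number, a hint from the data and not from the design. Differences that changed sign were small. With the array slope as a covariate, the median over the 5 genes in TiO2-UVR was 0.0037, as was Mknk2, and Tomm40l was 0.012 there; in Control + UVR Coq10b was 0.17 and Tomm40l 0.056, and Mknk2 in ZnO + UVR was 0.00157. With array weights Tomm40l in TiO2-UVR was 0.036 and Mknk2 in ZnO + UVR 0.00713; the latter was 0.022 without the block. Quantile normalization gave 0.039 for Coq10b in Control + UVR, and the compared groups alone gave -0.0074 for Tomm40l in ZnO + UVR. The cause was not tested. Leaving out 1 array at a time, the differences that changed sign ran from -0.28 to 0.074 (Coq10b) and -0.16 to 0.0055 (Tomm40l) in Control + UVR, -0.054 to 0.50 (Coq10b) in ZnO-UVR, -0.028 to 0.18 (Tomm40l) and -0.071 to 0.061 (Mknk2) in ZnO + UVR, and -0.15 to 0.081 (Tomm40l) in TiO2-UVR. The median r between the 5 genes stayed between 0.45 and 0.48. Another transcript of a gene could not be tried, since each gene had 1.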
